A study of Homo sapiens with 24 samples.

Results

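The NF-kB pathway and its inflammatory cytokines were examined in 4 human cancer cell lines after knockdown of IGF2BP1, an RNA-binding protein of the embryo that many tumours make again. The genes were a fixed list of 36 of the 58174 in each deposited table, found by their symbol in all 4 tables: 16 secreted cytokines and 20 pathway components and other target genes. The list was chosen with earlier results of these data known. The question was whether the mRNAs of the secreted factors and of the signalling machinery behind them differ between knockdown and control, and whether the 4 lines do so alike. The lines come from a lung adenocarcinoma (A549), a clear cell carcinoma of the ovary (ES2), an amelanotic melanoma (MV3) and a ductal adenocarcinoma of the pancreas (PANC1). In each line, cells given a control siRNA (siC, 3 libraries) were compared with cells given pooled siRNAs that target IGF2BP1 (siI1, 3 libraries), 24 libraries in 8 groups. RNA was taken 72 h after transfection in A549, ES2 and MV3 and 96 h after it in PANC1, so line and harvest time cannot be told apart for PANC1. Total RNA was depleted of ribosomal RNA before sequencing. Each line is 1 established culture, its 6 libraries share that culture's background, and no inflammatory stimulus is named in the labels.

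NF-kB is a family of dimeric transcription factors built from RELA, RELB, REL and the products of NFKB1 and NFKB2. Inhibitors of the IkB family, such as the product of NFKBIA, hold the dimers in the cytoplasm until a kinase complex marks the inhibitor for destruction, and the freed dimers switch on genes for chemokines, interleukins, adhesion molecules and their own inhibitors. Tumour cells often keep this pathway partly active and secrete CXC chemokines, which attract neutrophils, and IL6-type cytokines, which act through STAT3. Many cytokine mRNAs carry AU-rich elements in the 3' UTR, repeats of the pentamer ATTTA that shorten the life of an mRNA.

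Values are FPKM, reads per kilobase of gene length after the authors' scaling to library size. A library held 15572492 to 20082702 gene-assigned reads in MV3, but 6532175 to 8472851 in PANC1, 6421764 to 8419467 in ES2 and 3105215 to 4553326 in A549, so a given FPKM rests on fewest reads in A549. IGF2BP1 itself was lower in each siI1 library than in any siC library of its line, with log2 fold changes of -1.32, -1.55, -1.52 and -1.83. All 6 epithelial markers, such as the keratins, had a mean over 0.5 FPKM in A549 and PANC1. Their summed level was 1144 to 1249 FPKM in siC and 526 to 557 in siI1 in A549, 1342 to 1765 and 2061 to 2214 in PANC1, and 151 to 167 and 194 to 221 in ES2, without overlap between groups, while in MV3 it was 22.7 to 24.3 and 20.6 to 23.7. The list split in PANC1, where KRT8 and KRT19 were higher in siI1 without overlap and KRT7 and KRT18 overlapped. CDH1 was lower there (means of 4.55 FPKM in siC and 1.20 in siI1), as was EPCAM (3.59 and 1.94), without overlap. The part of these marker changes in the members' values was not tested. The markers of the tissues of origin were mostly absent in A549, ES2 and MV3: the 4 lung markers summed to at most 0.411 FPKM in any A549 library, the 3 ovarian clear cell markers to at most 0.262 in ES2 and the 6 melanocytic markers to at most 0.358 in MV3. Of 4 pancreatic ductal markers, SOX9, PDX1 and MUC1, but not CFTR, had a mean over 0.5 FPKM in PANC1. SOX9 was not particular to PANC1, with siC means of 22.5 FPKM in ES2, 18.2 in PANC1, 12.1 in MV3 and 8.06 in A549. MUC1 passed 0.5 FPKM in MV3 too. Of 8 leukocyte markers, none had a mean over 0.5 FPKM in ES2, MV3 or PANC1, and CD14 and ITGAM did in A549, where the summed list was 2.77 to 3.94 FPKM in siC and 4.45 to 6.51 in siI1. In PANC1 a single non-coding RNA, RN7SL2, took 8.74% to 12.8% of the reads in siC and 17.7% to 20.9% in siI1. Rescaling every library to the same FPKM sum shifted PANC1 as a whole, from a median log2 fold change of -0.04 to one of -0.68 over the genes tested, and by under 0.1 in the other lines, so rises in PANC1 are relative to the deposited scaling, and falls there are larger under the other one.

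The sequences around these genes are given first, because the group was defined by function and not by sequence. Promoters are the RefSeq windows on GRCh38.p14 from 250 bases before to 50 bases after a start, found for 29 of the 36 genes. The NF-kB consensus motif, searched on both strands with overlapping matches joined to 1, was present in 7 of 12 promoters of secreted cytokines and in 7 of 17 promoters of the other members, against 5.91% of all 35116 promoters in the table. An AP-1 motif (TGANTCA, both strands) was found in 3 of the 12 and in 0 of the 17, against 7.71% of all promoters, and TATAAA in 3 of 12 and 4 of 17, against 7.33%. CXCL1, CXCL2, CXCL3, CXCL5 and CXCL6 held the same 11 letters, GGGAATTTCCC, 68 to 91 bases before the start. Together with CXCL8 they lie within 358.678 kb of chromosome 4 (73740519 to 74099196). The 200 bases before the start of 3 of these chemokines and of BIRC3, the component that fell in most lines, are shown 5′ to 3′, with capitals for the NF-kB consensus match and, in CXCL8, for the AP-1 match. A match is a run of letters and not a bound site.
CXCL1 promoter, chr4:73869193-73869392, plus strand: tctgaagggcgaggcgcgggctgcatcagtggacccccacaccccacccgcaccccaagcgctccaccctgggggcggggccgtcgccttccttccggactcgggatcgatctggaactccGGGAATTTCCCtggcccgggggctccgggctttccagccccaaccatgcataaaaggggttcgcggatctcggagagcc
CXCL5 promoter, chr4:73998678-73998877, minus strand: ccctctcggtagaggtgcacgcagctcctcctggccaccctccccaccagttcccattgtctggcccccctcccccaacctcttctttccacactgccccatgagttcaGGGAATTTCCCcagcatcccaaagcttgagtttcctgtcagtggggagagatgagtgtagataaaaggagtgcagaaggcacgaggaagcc
CXCL8 promoter, chr4:73740369-73740568, plus strand: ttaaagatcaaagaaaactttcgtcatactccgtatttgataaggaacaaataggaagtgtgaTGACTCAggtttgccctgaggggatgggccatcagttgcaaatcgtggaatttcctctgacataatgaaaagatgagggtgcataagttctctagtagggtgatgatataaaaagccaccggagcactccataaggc
BIRC3 promoter, chr11:102317284-102317483, plus strand: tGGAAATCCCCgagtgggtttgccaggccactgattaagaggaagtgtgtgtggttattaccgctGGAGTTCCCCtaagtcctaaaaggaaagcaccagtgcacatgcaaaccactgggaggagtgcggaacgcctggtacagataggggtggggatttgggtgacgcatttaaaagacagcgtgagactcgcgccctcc

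The second set of sequences comes from the 3' UTRs, taken as the longest annotated 3' UTR of each gene in GENCODE release 44 (hg38). The median density of ATTTA was 5.89 per kb in the 16 secreted cytokines, 2.46 per kb in the 20 other members and 1.54 per kb over 19190 protein-coding genes. The nonamer TTATTTATT was present in 8 of the 16, in 5 of the 20 and in 8.84% of all. CSF2 had the highest density among the members, 8 pentamers in 318 nt, and CXCL2 had 10 in 716 nt, while IL18, TNFAIP2, RELA, RELB, NFKBIB and NFKBIE had 0. The 30 bases richest in ATTTA, in capitals, are shown for 6 cytokines whose RNA levels are described next and for PTGS2, the component with the highest density, counting from the first base after the stop codon.
CXCL1, 3' UTR bases 137 to 166: aagtcttctATTTATTTATTTAttcattag
CXCL2, 3' UTR bases 141 to 170: cttctATTTATTTATTTATTTATTTAtttg
CXCL8, 3' UTR bases 647 to 676: cctATTTAttATTTAtgtATTTATTTAagc
IL11, 3' UTR bases 35 to 64: ccagatcttATTTATTTATTTAtttcagta
IL1B, 3' UTR bases 337 to 366: cgcttccctATTTATTTATTTAtttgtttg
CSF2, 3' UTR bases 224 to 253: aaaatATTTATTTATTTATTTATTTAagtt
PTGS2, 3' UTR bases 7 to 36: aatgatcatATTTATTTATTTAtatgaacc

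**Figure D1:**
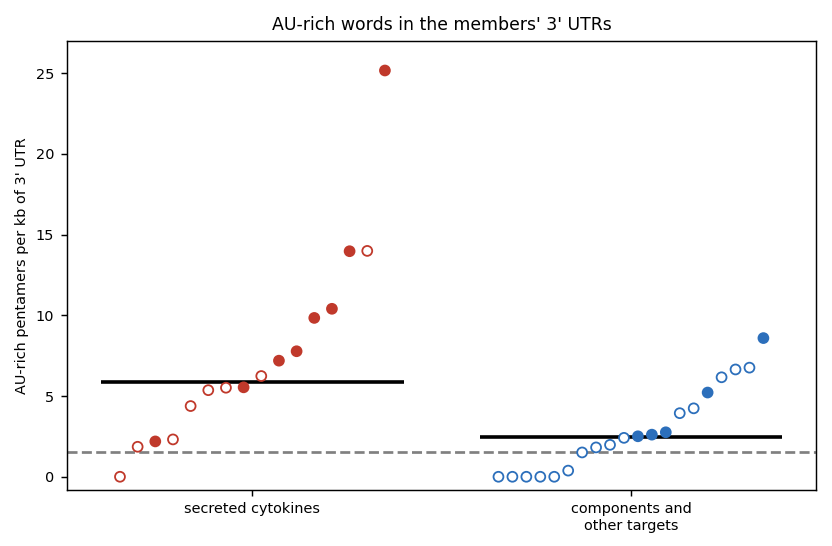
Number of AU-rich pentamers per kb of 3' UTR (vertical axis) for each of the 16 secreted cytokines and 20 other members, ordered within a class; filled points have at least 1 nonamer. Solid lines are the class medians (5.89 and 2.46 per kb) and the dashed line is the median of 19190 protein-coding genes (1.54 per kb).

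Knockdown touched members of both classes, more often downwards in ES2 and MV3, and the lines differed in which genes moved. A gene entered the test of a line when its FPKM averaged 0.5 or more there, was compared by limma on log2(FPKM + 0.5), and was called when its p-value, adjusted across that line's tested genes, was under 0.05. Of the 16 secreted cytokines, 5 were tested in all 4 lines, 3 in 3 lines, 6 in 2 lines, CSF2 in 1 and CXCL6 in none. Of the 20 other members, 16 were tested in all 4 lines, 2 in 3 lines, PTGS2 in 2 and VCAM1 in 1.

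In A549, 1 of 14 secreted cytokines tested and 2 of 18 other members were lower, against 7.83% of all genes tested. In the same line, 2 of the 14 and 2 of the 18 were higher, against 5.93%. In ES2, 5 of 11 secreted cytokines and 5 of 18 other members were lower, against 13.0%, and 1 of each class was higher, against 10.5%. In MV3, 5 of 10 secreted cytokines and 5 of 19 other members were lower, against 19.5%, and 0 and 2 were higher, against 16.3%. In PANC1, 2 of 7 secreted cytokines and 3 of 18 other members were lower, against 13.4%, and 1 of each class was higher, against 11.3%. Because the members were chosen with earlier results of these data known, these shares are descriptions and not a test. For components in A549 and PANC1 they lie near those of all genes. The shares of lower secreted cytokines in A549 and of higher ones in ES2 and PANC1 lie near them too. The largest excess over the background was that of lower secreted cytokines in ES2 and MV3. In ES2, 2 of the 5, IL1A and IL1B, passed the level filter only through siC, so part of that excess was built in.

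The secreted cytokines tested had a median log2 fold change of -0.50 in ES2 and -0.27 in MV3, against 0.12 in A549 and 0.08 in PANC1. That of the other members was -0.14 and -0.12, against -0.00 and -0.16, and that of all genes tested lay between -0.04 and 0.01. IL1A, IL1B and CCL20 in ES2 passed the level filter only through the group in which they were higher. The 5 lower cytokines in that line thus include 2, IL1A and IL1B, for which a difference was built in. The ES2 median of -0.50 also includes IL1A, IL1B and CCL20. The summed FPKM of the 16 secreted cytokines, from group means, was 767 in siC and 816 in siI1 in A549, where CXCL5 made up most of it. The sums were 184 and 86.0 in ES2, 92.5 and 66.6 in MV3, and 86.2 and 89.7 in PANC1.

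**Figure D2:**
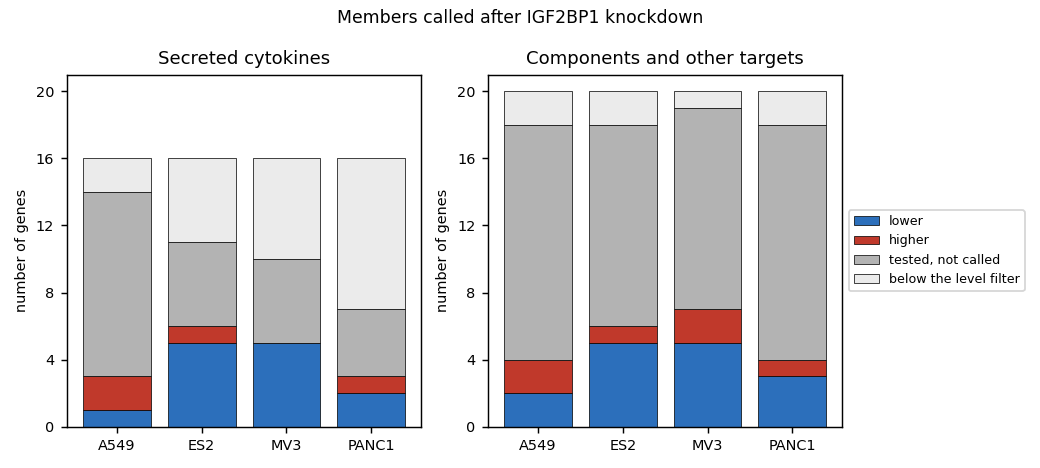
Number of genes (vertical axis) called lower, called higher, tested and not called, or below the level filter, by cell line, for the 16 secreted cytokines (left) and the 20 other members (right). Lower calls number 5 in each class in ES2 and in MV3, and 9 secreted cytokines were below the filter in PANC1.

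**Figure D3:**
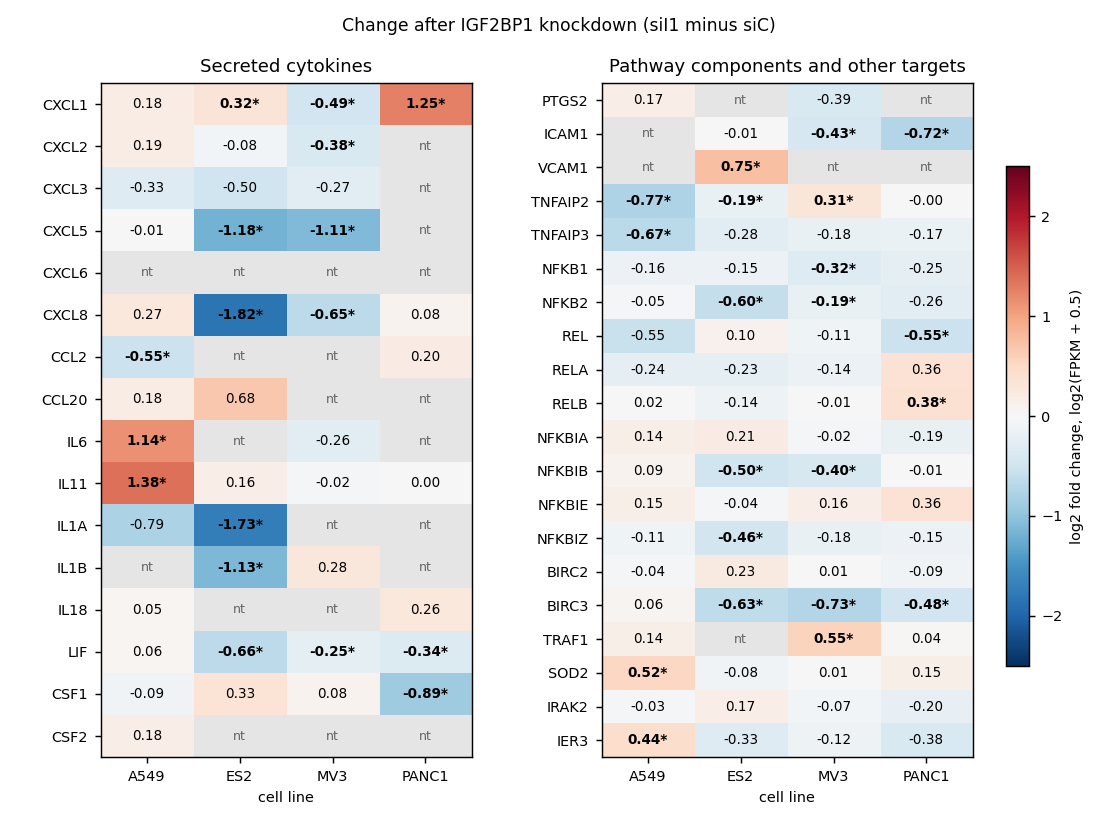
Log2 fold change, siI1 minus siC on the log2(FPKM + 0.5) scale, of each member (rows) in each line (columns); bold values with * passed the limma threshold and nt marks genes below the level filter. On this scale the strongest fall is that of CXCL8 in ES2 (-1.82) and the strongest rise that of IL11 in A549 (1.38). As ratios of mean FPKM, IL1A in ES2 fell more than CXCL8 (9.03 against 3.62 times), and IL6 in A549 rose more than IL11 (3.11 against 2.64 times), both on few reads.

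The neutrophil-attracting CXC chemokines split by line and by gene. CXCL8 (chromosome 4, 73740519 to 73743716), also called interleukin 8, had 60.5, 49.8 and 57.1 FPKM in siC and 14.7, 15.6 and 16.0 FPKM in siI1 in ES2. Every siI1 library lay far below the siC libraries, and the log2 fold change was -1.82 ± 0.08 (SE, limma adjusted p 0.000105). In MV3 its levels were 16.6, 16.8 and 17.6 FPKM in siC and 11.4, 11.5 and 9.29 FPKM in siI1, again without overlap (log2 fold change -0.65 ± 0.08, limma adjusted p 0.00195). In A549, with 116, 106 and 86.3 FPKM in siC and 123, 121 and 126 FPKM in siI1, the siI1 libraries were the higher ones, but the value of 0.27 ± 0.11 did not pass the test (limma adjusted p 0.163). In PANC1 CXCL8 was low, 2.57, 1.96 and 0.995 FPKM in siC and 2.77, 1.68 and 1.39 FPKM in siI1, and the groups overlapped (95% interval -0.69 to 0.86).

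CXCL5 (chromosome 4, 73995642 to 73998677), a further ligand of the neutrophil receptor CXCR2, was the most abundant secreted member in A549 and ES2. In ES2 it had 96.9, 82.0 and 97.1 FPKM in siC and 40.4, 40.2 and 40.1 FPKM in siI1 (log2 fold change -1.18 ± 0.07, limma adjusted p 0.000278). In MV3 it had 18.4, 18.4 and 17.2 FPKM in siC and 7.57, 8.79 and 7.93 FPKM in siI1 (log2 fold change -1.11 ± 0.06, limma adjusted p 0.000162). CXCL5 fell in both lines, and in neither did the groups overlap. In A549 the levels were 501, 471 and 376 FPKM in siC and 438, 435 and 453 FPKM in siI1, with overlapping groups and a 95% interval of -0.28 to 0.25 around -0.01. In PANC1 it was below the filter, with 0 to 20 reads per library.

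CXCL1 (chromosome 4, 73869393 to 73871308) was called in opposite directions. In PANC1 it had 7.93, 7.43 and 7.44 FPKM in siC and 18.6, 18.5 and 19.3 FPKM in siI1, and each siI1 library was more than 2 times any siC library. Its log2 fold change there was 1.25 ± 0.06 (SE, limma adjusted p 0.000463), and 0.53 (adjusted p 0.0316) after rescaling to the same FPKM sum. In MV3 it fell, from 26.2, 26.9 and 27.4 FPKM in siC and 18.2, 20.8 and 18.2 FPKM in siI1 (log2 fold change -0.49 ± 0.06, limma adjusted p 0.00137). In ES2 it rose slightly, with 12.4, 10.8 and 10.6 FPKM in siC and 15.0, 13.1 and 14.4 FPKM in siI1 (log2 fold change 0.32 ± 0.08, limma adjusted p 0.0375). This last call was lost when any of 4 single libraries was left out, with log2 fold changes of 0.28 to 0.31 and adjusted p of 0.10 to 0.11. In A549 the siI1 libraries, 80.4, 81.2 and 81.5 FPKM in siC and 90.2, 97.4 and 89.1 FPKM in siI1, were all higher, by 0.18 ± 0.05, just short of the threshold (limma adjusted p 0.0559).

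The close relatives CXCL2 and CXCL3 were less abundant and moved less. CXCL2 fell in MV3, with 2.92, 2.81 and 2.70 FPKM in siC and 2.09, 2.07 and 1.97 FPKM in siI1 (log2 fold change -0.38 ± 0.07, limma adjusted p 0.006), and was not called in A549 (0.19) or ES2 (-0.08). CXCL3 had values of -0.33, -0.50 and -0.27 in A549, ES2 and MV3, none of them called. CXCL6 had 0 to 7 reads in every library of the 4 lines. CXCL1, CXCL2 and CXCL3 are close paralogs, and CXCL5 and CXCL6 are related, so reads that could come from more than 1 of them may make the split between them uncertain. In A549 CXCL6 had 0 to 1 reads per library beside 3573 to 5186 of CXCL5. In PANC1 CXCL2 had 0 to 2 beside 74 to 165 of CXCL1. The size of any such effect was not tested.

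**Figure D4:**
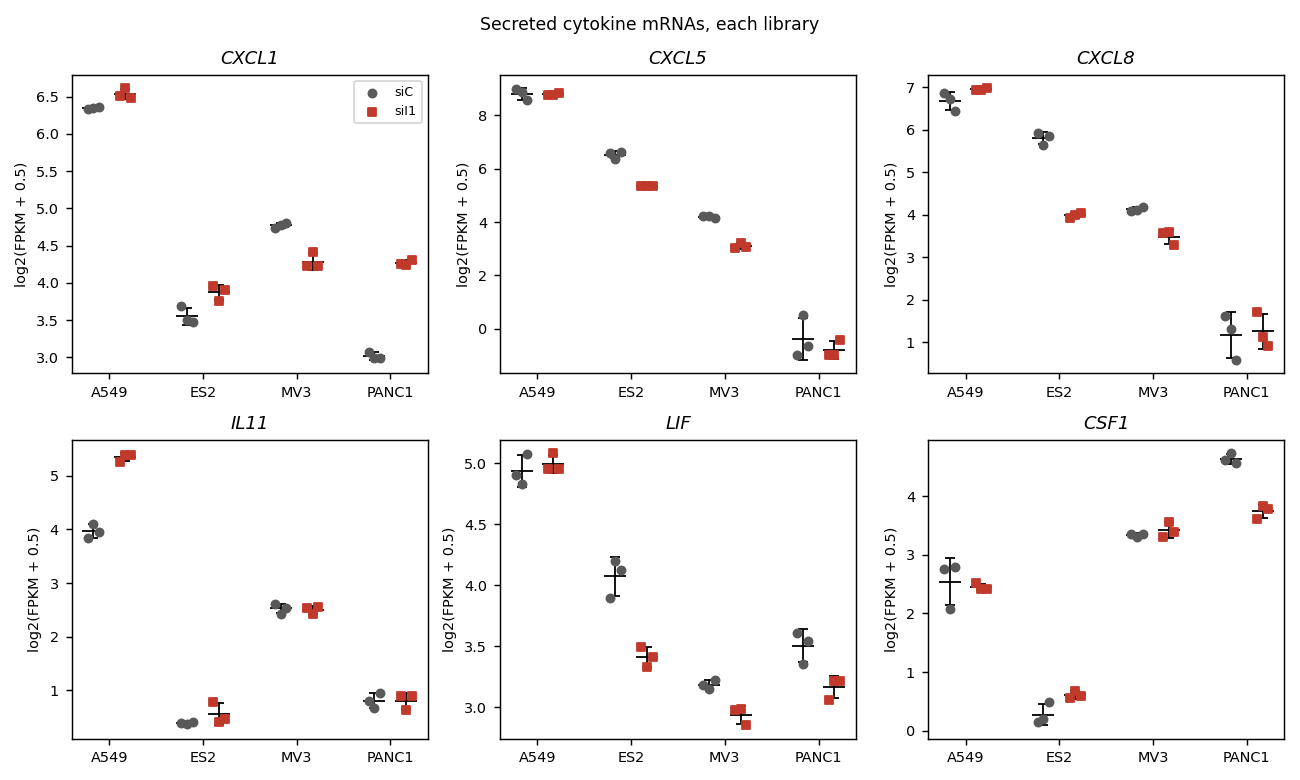
Log2(FPKM + 0.5) of 6 secreted cytokine mRNAs in each library (points), with the mean and SD of each group of 3 (bars), siC in grey circles and siI1 in red squares. CXCL8 and CXCL5 are lower in siI1 in ES2 and MV3, CXCL1 is higher in PANC1 and lower in MV3, IL11 is higher in A549, and CSF1 is lower in PANC1.

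Of the CC chemokines, CCL2, which attracts monocytes, passed the level filter in A549 and PANC1. In A549 it had 18.3, 17.5 and 17.0 FPKM in siC and 13.3, 12.3 and 10.2 FPKM in siI1 and fell by 0.55 on the log2 scale (limma adjusted p 0.0197). That call was lost when any of 4 single libraries was left out, with adjusted p of 0.057 to 0.073. In PANC1 it had 31.3, 36.1 and 28.4 FPKM in siC and 35.6, 36.6 and 37.4 FPKM in siI1, a log2 fold change of 0.20 ± 0.09 that was not called (limma adjusted p 0.164). This PANC1 value turned to -0.55 (limma adjusted p 0.00985) after rescaling to the same FPKM sum. CCL20, an attractant of CCR6-bearing lymphocytes, was tested in A549 (0.18) and ES2 (0.68) and called in neither, on 1 to 19 reads per library.

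Among the interleukins, IL11 and IL6, both of the IL6 family, were called higher in A549, the latter on few reads. IL11 (chromosome 19, 55364382 to 55370463) had 13.8, 16.7 and 15.0 FPKM in siC and 37.7, 41.2 and 41.3 FPKM in siI1 in A549, where every siI1 library was more than 2 times any siC library. Its log2 fold change was 1.38 ± 0.08 (SE, limma adjusted p 0.000734). In MV3, where it was also well expressed at 5.60, 4.90 and 5.33 FPKM in siC and 5.31, 4.86 and 5.36 FPKM in siI1, the groups overlapped and the 95% interval was -0.18 to 0.14. In ES2 and PANC1 the values were 0.16 and 0.00, on 14 to 32 reads per library. IL6, the founding member of that cytokine family, had 0.830, 0.607 and 0.772 FPKM in siC and 2.70, 2.66 and 1.50 FPKM in siI1 in A549. The rise of 1.14 ± 0.25 (limma adjusted p 0.0335) rested on 5 to 7 reads in siC and 11 to 25 in siI1, and was lost when any of 5 single libraries was left out (adjusted p 0.081 to 0.11). In MV3 IL6 had 2.06, 1.79 and 1.74 FPKM in siC and 1.52, 1.34 and 1.55 FPKM in siI1, lower without overlap, but the value of -0.26 was not called (limma adjusted p 0.0796). In ES2 and PANC1 IL6 had at most 1 read per library.

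Of the IL1 family, IL1A and IL1B were called lower in ES2, where both passed the level filter only through siC. IL1A, which cells release on damage and which activates NF-kB through the IL1 receptor, had 1.83, 1.79 and 1.89 FPKM in siC and 0.248, 0.196 and 0.167 FPKM in siI1 in ES2. This is a change of -1.73 ± 0.17 on the log2 scale (SE, limma adjusted p 0.00133) that rested on 25 to 29 reads in siC and 3 to 4 in siI1. IL1B, its secreted relative, had 1.21, 2.12 and 1.25 FPKM in siC and 0.255, 0.493 and 0.497 FPKM in siI1 in ES2 (log2 fold change -1.13 ± 0.25, limma adjusted p 0.0216). The IL1B call was lost without siC replicate 2 (adjusted p 0.065), without siI1 replicate 1 (adjusted p 0.059) and without siI1 replicate 3 (adjusted p 0.052), with log2 fold changes between -1.20 and -0.93. IL1A in A549, with 1.62, 1.18 and 1.18 FPKM in siC and 0.878, 0.311 and 0.531 FPKM in siI1, was lower in each siI1 library but not called (-0.79, limma adjusted p 0.145). IL1B in MV3, with 0.601, 0.762 and 0.450 FPKM in siC and 0.836, 0.749 and 0.921 FPKM in siI1, overlapped between groups. IL18, a further relative that is stored as a precursor, was expressed in A549 (24.2 ± 1.85 FPKM in siC and 25.1 ± 2.37 FPKM in siI1; SD, n = 3 each) and PANC1 (7.46 ± 0.704 FPKM in siC and 9.08 ± 1.11 FPKM in siI1; SD, n = 3 each), and was called in neither.

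LIF, a cytokine of the IL6 family that acts through LIFR, was the secreted member called lower in most lines. In ES2 it had 14.4, 17.9 and 16.9 FPKM in siC and 10.7, 9.58 and 10.1 FPKM in siI1 (log2 fold change -0.66 ± 0.09, limma adjusted p 0.00426). In MV3 it had 8.59, 8.37 and 8.83 FPKM in siC and 7.36, 7.41 and 6.72 FPKM in siI1 (log2 fold change -0.25 ± 0.05, limma adjusted p 0.0108). In PANC1 it had 11.7, 9.71 and 11.2 FPKM in siC and 7.85, 8.80 and 8.81 FPKM in siI1 (log2 fold change -0.34 ± 0.09, limma adjusted p 0.0387), a call lost in 5 of the 6 fits that each left out 1 library. In A549 LIF was most abundant, 29.3, 27.9 and 33.3 FPKM in siC and 30.4, 33.3 and 30.4 FPKM in siI1, and the groups overlapped.

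CSF1, the growth factor of macrophages, fell in PANC1, the line in which it was highest. It had 24.1, 26.1 and 23.1 FPKM in siC and 11.8, 13.8 and 13.3 FPKM in siI1 there (log2 fold change -0.89 ± 0.08, limma adjusted p 0.00144), and no siI1 library came near a siC library. In MV3, at 9.80, 9.40 and 9.74 FPKM in siC and 9.37, 11.4 and 9.99 FPKM in siI1, the groups overlapped, and in A549 and ES2 the values of -0.09 and 0.33 were not called. CSF2, which acts on granulocytes and macrophages, was tested in A549 alone, where it had 2 reads in each siC library and 7, 0 and 2 reads in the siI1 libraries, so no change was detectable at this depth.

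The transcription factor subunits were called in few lines. All calls but that of RELB in PANC1 were falls, with log2 fold changes from -0.60 to -0.19. NFKB1, the gene of the p50 subunit, had 13.9, 15.2 and 13.5 FPKM in siC and 11.3, 10.9 and 11.6 FPKM in siI1 in MV3 (log2 fold change -0.32 ± 0.05, limma adjusted p 0.00449), and values of -0.16, -0.15 and -0.25 in A549, ES2 and PANC1 that were not called. NFKB2, the gene of the p52 subunit of the non-canonical branch, had 11.6, 11.7 and 10.6 FPKM in siC and 8.25, 6.34 and 7.34 FPKM in siI1 in ES2 (log2 fold change -0.60 ± 0.10, limma adjusted p 0.00827). Its fall of 0.19 in MV3 passed narrowly (limma adjusted p 0.0365), and was lost in 4 of the 6 fits that each left out 1 library.

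RELA, the main activating subunit, was called in no line, with log2 fold changes of -0.24, -0.23, -0.14 and 0.36. The last, in PANC1, turned to -0.37 (limma adjusted p 0.0443) after rescaling to the same FPKM sum. RELB, the partner of p52, rose in PANC1 from 8.47, 8.40 and 8.67 FPKM in siC and 11.4, 11.2 and 11.2 FPKM in siI1 (log2 fold change 0.38 ± 0.05, limma adjusted p 0.00444), but the sign turned to -0.34 (adjusted p 0.137) when libraries were rescaled to the same FPKM sum. REL, the subunit best known from lymphocytes, was low everywhere. It had 1.62, 1.47 and 1.86 FPKM in siC and 0.819, 1.06 and 1.04 FPKM in siI1 in PANC1 (log2 fold change -0.55 ± 0.15, limma adjusted p 0.0451), a call lost without any single library, and in A549 it was lower by a like amount (-0.55) without being called (limma adjusted p 0.0829).

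The inhibitors behaved apart from one another. NFKBIA, the classical IkB and an early target of the pathway, was the most abundant of them in A549 and MV3 and was called in no line, with overlapping groups in all 4. Its 95% interval was -0.11 to 0.07 in MV3 and -0.07 to 0.35 in A549. NFKBIB, which encodes IkB-beta, fell in ES2, with 11.7, 14.0 and 13.5 FPKM in siC and 9.17, 9.49 and 8.51 FPKM in siI1 (log2 fold change -0.50 ± 0.08, limma adjusted p 0.00745), and in MV3, with 15.4, 16.3 and 14.4 FPKM in siC and 10.2, 12.5 and 12.1 FPKM in siI1 (log2 fold change -0.40 ± 0.09, limma adjusted p 0.0136). NFKBIZ, a nuclear relative that helps to switch on secondary targets such as IL6, fell in ES2 by 0.46 (limma adjusted p 0.0273), a call lost in 5 of the 6 fits that each left out 1 library. NFKBIE was called in no line, and its highest value was 0.36 in PANC1 (limma adjusted p 0.0538). TNFAIP3, the ubiquitin-editing enzyme A20 that shuts the pathway off, fell in A549, with 12.2, 13.2 and 12.9 FPKM in siC and 7.26, 7.44 and 9.00 FPKM in siI1 (log2 fold change -0.67 ± 0.10, limma adjusted p 0.00871). In ES2, MV3 and PANC1 its values were -0.28, -0.18 and -0.17, none called.

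Among the adaptors and survival factors, BIRC3 fell in 3 of the 4 lines. BIRC3 (chromosome 11, 102317484 to 102339403) encodes cIAP2, a ubiquitin ligase of the TNF receptor complex. It had 3.44, 3.06 and 3.52 FPKM in siC and 2.01, 2.03 and 1.89 FPKM in siI1 in ES2 (log2 fold change -0.63 ± 0.09, limma adjusted p 0.00549). In MV3 it had 3.54, 3.67 and 3.37 FPKM in siC and 2.07, 1.90 and 1.82 FPKM in siI1 (log2 fold change -0.73 ± 0.07, limma adjusted p 0.0007). In PANC1 it had 25.3, 21.5 and 25.8 FPKM in siC and 17.8, 17.0 and 16.6 FPKM in siI1 (log2 fold change -0.48 ± 0.08, limma adjusted p 0.00861). No siI1 library reached a siC library in these lines, whereas the groups overlapped in A549, with 18.4, 19.5 and 16.2 FPKM in siC and 17.9, 18.1 and 20.5 FPKM in siI1. Its neighbour BIRC2, which encodes the related cIAP1 and lies close to it on chromosome 11, was called in no line, with values between -0.09 and 0.23. TRAF1, an adaptor of TNF receptors, rose in MV3, from 0.773, 0.752 and 0.952 FPKM in siC and 1.34, 1.51 and 1.46 FPKM in siI1 (log2 fold change 0.55 ± 0.11, limma adjusted p 0.0116). IRAK2, a kinase-like adaptor of the IL1 receptor, was called in no line, with values of -0.20 to 0.17.

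Of the remaining targets, TNFAIP2 was called in opposite directions in different lines. TNFAIP2, a TNF-induced gene, had 103, 101 and 103 FPKM in siC and 59.3, 60.3 and 60.0 FPKM in siI1 in A549 (log2 fold change -0.77 ± 0.04, limma adjusted p 0.000474). In MV3 it rose, from 7.45, 7.17 and 7.48 FPKM in siC and 8.67, 9.63 and 9.40 FPKM in siI1 (log2 fold change 0.31 ± 0.05, limma adjusted p 0.00453). In PANC1, with 58.5, 55.5 and 58.3 FPKM in siC and 57.8, 59.1 and 54.9 FPKM in siI1, the groups overlapped and the 95% interval was -0.13 to 0.12. The fall of 0.19 in ES2 passed narrowly (limma adjusted p 0.0465) and was lost in all 6 fits that each left out 1 library. SOD2, the mitochondrial superoxide dismutase, rose in A549, with 31.8, 30.7 and 28.5 FPKM in siC and 43.8, 42.5 and 44.3 FPKM in siI1 (log2 fold change 0.52 ± 0.06, limma adjusted p 0.00346), and was called in no other line. IER3, an early response gene, rose in A549 by 0.44 (limma adjusted p 0.0473), a call lost in 5 of the 6 fits that each left out 1 library.

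The adhesion molecules, which bind leukocytes, were each expressed in part of the lines. ICAM1 fell in PANC1, with 16.8, 17.8 and 17.2 FPKM in siC and 9.12, 12.3 and 9.52 FPKM in siI1 (log2 fold change -0.72 ± 0.11, limma adjusted p 0.00709), and in MV3, with 12.3, 10.7 and 10.7 FPKM in siC and 7.83, 8.39 and 8.41 FPKM in siI1 (log2 fold change -0.43 ± 0.06, limma adjusted p 0.00341). In ES2 its value was -0.01 with overlapping groups, and in A549 it had 0 to 6 reads. VCAM1 passed the level filter in ES2 alone and rose there, from 6.36, 5.04 and 5.87 FPKM in siC and 9.81, 9.81 and 10.3 FPKM in siI1 (log2 fold change 0.75 ± 0.09, limma adjusted p 0.00256). Of the 4 endothelial markers, CDH5 alone had a mean over 0.5 FPKM in ES2, and the summed list was 8.62 to 11.4 FPKM in siC and 14.7 to 16.4 in siI1. The part of these markers in the VCAM1 value was not tested. PTGS2, which encodes the prostaglandin-making enzyme COX-2, had 33.7, 29.6 and 23.1 FPKM in siC and 34.0, 30.3 and 31.9 FPKM in siI1 in A549 with overlapping groups. In MV3 PTGS2 had 1.16, 1.15 and 0.949 FPKM in siC and 0.709, 0.815 and 0.609 FPKM in siI1, lower in each siI1 library but not called (-0.39, limma adjusted p 0.0641).

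**Figure D5:**
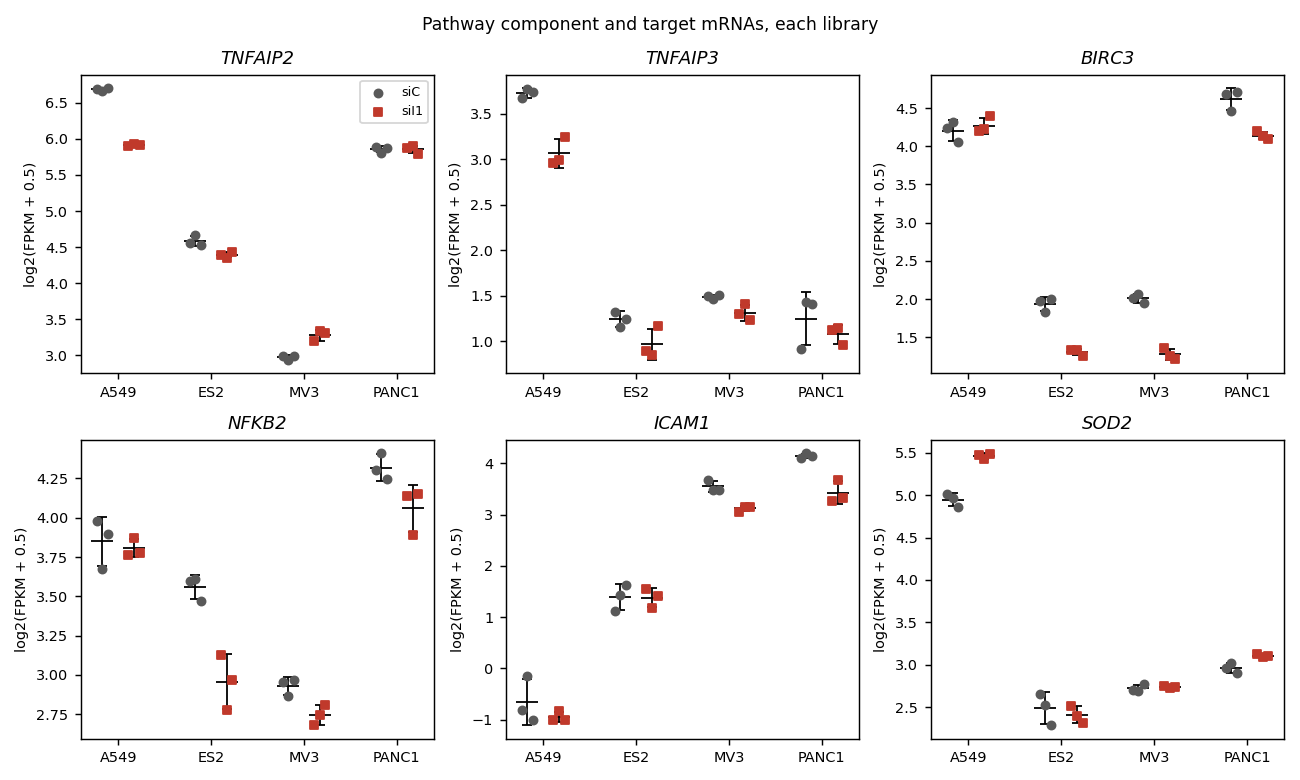
Log2(FPKM + 0.5) of 6 pathway component and target mRNAs in each library (points), with the mean and SD of each group of 3 (bars), siC in grey circles and siI1 in red squares. TNFAIP2 is lower in siI1 in A549 and higher in MV3, and BIRC3 is lower in ES2, MV3 and PANC1.

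Whether the lines differed in their response was tested directly, by an F test of the knockdown effects of all 4 lines in 1 limma fit over the 24 libraries. Of the members tested in all 4 lines, 5 of 5 secreted cytokines and 10 of 16 other members differed, against 45.0% of all genes tested. The secreted genes were CXCL1 (limma adjusted p 6.74e-10), IL11 (6.99e-07), CXCL8 (3.8e-05), CSF1 (0.000293) and LIF (0.00069). TNFAIP2 (2.42e-09) and BIRC3 (5.33e-05) led the other members. For the 6 that were not called, TNFAIP3, NFKB1, NFKBIE, NFKBIZ, BIRC2 and IRAK2, a change in 1 line and not in another is not shown to be particular to that line. Without PANC1, the line harvested later, 10 of these 21 members differed in the same test, against 27.1% of all genes tested in A549, ES2 and MV3, an alternative added after the data were seen. CSF1 (limma adjusted p 0.311), REL, RELA, RELB, NFKBIA and IER3 then no longer passed, and TNFAIP3 (0.0292) did.

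For members measured in fewer lines the same test was run over those lines, an addition made after the data were seen. CXCL5 differed between A549, ES2 and MV3 (limma adjusted p 1.29e-05), against 27.1% of all genes. IL6 differed between A549 and MV3 (0.00491), against 16.9%. CCL2 differed between A549 and PANC1 (0.0067), against 14.9%, and IL1B between ES2 and MV3 (0.011), against 14.3%, although IL1B entered the ES2 test only through siC, the group in which it was higher. The CCL2 value in PANC1 turned to -0.55 after rescaling to the same FPKM sum, and its difference from A549 was not tested under that scaling. ICAM1 differed between ES2, MV3 and PANC1 (0.017), against 38.7%. IL1A (0.0888, A549 and ES2, against 14.0%) and TRAF1 (0.156, A549, MV3 and PANC1, against 34.1%) were not shown to differ, nor were CXCL2, CXCL3, CCL20, IL18 and PTGS2.

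In the siC libraries the lines also started from different levels, which are set side by side here although each table was scaled on its own. CXCL5 was highest in A549, with a mean of 449 FPKM, followed by ES2 with 92.0, MV3 with 18.0 and PANC1 with 0.356. CXCL8 followed the same order, with 103, 55.8, 17.0 and 1.84 FPKM, and neighbours in that order did not overlap. CSF1 had nearly the opposite order, with 24.5 FPKM in PANC1, 9.65 in MV3, 5.47 in A549 and 0.715 in ES2.

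The rest of the pathway was counted from lists of related genes. These lists too were chosen with earlier results of these data known, so the counts are descriptions. Each count stands against the shares of all genes tested in A549, ES2, MV3 and PANC1, which were 7.83%, 13.0%, 19.5% and 13.4% for lower and 5.93%, 10.5%, 16.3% and 11.3% for higher. Of 25 genes of the kinase and ubiquitin machinery upstream of NF-kB, all tested in each line, 5, 5, 9 and 3 were lower and 1, 2, 2 and 2 higher in A549, ES2, MV3 and PANC1, so that in PANC1 the lower genes were no more frequent than among all genes. IRAK1, the kinase that relays IL1 and Toll-like receptor signals, fell in all 4 lines, by 1.00 in A549, 0.82 in ES2, 0.61 in PANC1 and 0.38 in MV3 on the log2 scale. In A549 it had 86.5, 82.1 and 89.0 FPKM in siC and 45.2, 40.3 and 42.6 FPKM in siI1 (limma adjusted p 0.000708). MYD88, the adaptor upstream of IRAK1, had 17.1, 13.7 and 15.8 FPKM in siC and 5.22, 5.51 and 5.52 FPKM in siI1 in A549 (log2 fold change -1.43 ± 0.10, limma adjusted p 0.00086) and also gave the largest fall of this list in PANC1 (-0.64). MAP3K14, the kinase NIK of the non-canonical branch, was called higher in all 4 lines, with values of 0.72, 1.13, 0.63 and 0.38, the last of which turned to -0.36 after rescaling to the same FPKM sum. BCL10, an adaptor, gave the largest rise of the list in PANC1 (0.65, and -0.09 after the rescaling).

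Receptors of the secreted factors were mostly below the level filter, 10 of 14 in A549 and PANC1 and 12 in ES2 and MV3, and 4 to 7 of the 14 were listed at 0 in every library of a line. Of those tested, 3 of 4 in A549, both in ES2, 1 of 2 in MV3 and 1 of 4 in PANC1 were higher. PANC1 also had 1 lower. IL6R rose in A549, with 2.01, 2.30 and 2.26 FPKM in siC and 6.07, 5.93 and 6.52 FPKM in siI1 (log2 fold change 1.31 ± 0.10, limma adjusted p 0.00142), in MV3 (0.48) and in PANC1 (1.21, and 0.51 with adjusted p 0.0441 after the rescaling), and in ES2 it was below the filter. LIFR, the receptor of LIF, rose in ES2, with 5.84, 5.07 and 6.32 FPKM in siC and 15.2, 17.1 and 15.5 FPKM in siI1 (log2 fold change 1.40 ± 0.09, limma adjusted p 0.000344). IL6ST, the signalling chain shared by IL6, IL11 and LIF, fell in PANC1 (-0.25, limma adjusted p 0.033).

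Of 6 partner transcription factors and feedback genes, 4, 3, 1 and 4 were higher in A549, ES2, MV3 and PANC1, of 6, 5, 6 and 6 tested, and 1 was lower, in ES2. The 1 of 6 in MV3 is near the share of all genes. After rescaling to the same FPKM sum, all of these genes but ATF3 had negative values in PANC1. The count of 4 there thus rests on the deposited scaling. STAT3, the factor downstream of IL6-type cytokines, was called higher in all 4 lines, with values of 0.43, 0.58, 0.40 and 0.37, the last of which turned to -0.38 (adjusted p 0.0518) after rescaling to the same FPKM sum. SOCS3, a feedback inhibitor of STAT3 signalling, gave the largest rise of the list in A549 (0.63), CEBPD in ES2 (1.30) and ATF3 in PANC1 (1.01), where the ATF3 call was lost after the rescaling (0.37, adjusted p 0.151). CEBPB, a partner of NF-kB on the IL6 and CXCL8 promoters, fell in ES2, with 17.3, 18.7 and 19.0 FPKM in siC and 11.2, 11.3 and 12.2 FPKM in siI1 (log2 fold change -0.64 ± 0.06, limma adjusted p 0.00111).

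Of 11 factors that set the stability of cytokine mRNAs, 2, 2, 5 and 2 were lower and 0, 2, 1 and 1 higher in A549, ES2, MV3 and PANC1, of 11, 10, 11 and 11 tested. The counts in PANC1 lie near the shares of all genes. KHSRP, a decay factor of AU-rich mRNAs, gave the largest fall in ES2 (-0.48) and in MV3, where it had 82.3, 79.7 and 77.8 FPKM in siC and 51.9, 54.8 and 54.4 FPKM in siI1 (limma adjusted p 0.00019). RC3H2, or roquin-2, gave the largest fall in A549 (-0.69) and PANC1 (-0.83). TIA1, which binds AU-rich mRNAs and holds back their translation, gave the largest rise in ES2 (0.43) and MV3 (0.34), and ZFP36L2, a decay factor, in PANC1 (0.28, and -0.43 after the rescaling).

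Of 13 upstream receptors and ligands, 9, 8, 7 and 8 were tested in the same order of lines, of which 0, 2, 4 and 1 were lower and 3, 2, 1 and 1 higher. In PANC1 these counts lie near the shares of all genes. IL1RAP, the accessory chain of the IL1 receptor, gave the largest rise in A549, with 2.99, 2.54 and 2.62 FPKM in siC and 5.57, 7.63 and 6.01 FPKM in siI1 (log2 fold change 1.09 ± 0.14, limma adjusted p 0.00613). IL1R1, the signalling receptor of IL1A and IL1B, gave the largest rise in MV3 (0.59) and in ES2 (0.97, limma adjusted p 0.047), where it passed the level filter only through siI1. TNFRSF21 gave the largest fall in ES2 (-0.35) and MV3 (-0.46). In PANC1 the TNF receptor gene TNFRSF1A fell (-0.28) and TNFRSF1B rose (0.86), a call that was lost after the rescaling (0.16, adjusted p 0.407). Of 8 other negative regulators, 7 were tested in each line, of which 1, 0, 2 and 1 were lower and 0, 0, 0 and 1 higher, near or below the shares of all genes, with the largest falls in OTULIN in A549 (-0.44) and PANC1 (-0.40) and in TNIP1 in MV3 (-0.25), and TNIP2 the gene that rose in PANC1 (0.27, and -0.46 with adjusted p 0.0215 after the rescaling).

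The 3 libraries of a group are replicates by label, and nothing in the sources used here says whether they came from separate transfections, so p-values measure the spread between these libraries. Values are RNA levels, and the amount of secreted protein was not measured.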

How the data were processed

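Total RNA libraries of A549, ES2, MV3 and PANC1 cells, 3 siC and 3 siI1 per line, were assigned to groups from their titles. Per the labels, the authors clipped reads with cutadapt (1.14), aligned them to hg38 with HISAT2 (2.1.0) and counted them per gene with featureCounts (1.5.3) on an Ensembl annotation. How reads matching several genes were counted is not given in the sources used here. The authors deposited 1 table per line with FPKM values, with no unit named; multiplied by the gene length, each value was a whole multiple of 1 step per library, within 0.01, which gave the unit, reads and depth. The authors' fold change, p-value and FDR columns were not used. Replicates of a group differed by more than sampling noise (chi-square per gene 1.73 to 17.7 over 24 pairs), so all were kept as separate.

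Each line was tested on its own with limma (3.58.1, R 4.3.3; lmFit and eBayes with trend, two-sided) on log2(FPKM + 0.5), a scale that understates the change of low genes, for genes averaging 0.5 FPKM or more in that line, and p-values were adjusted by Benjamini-Hochberg across these genes and called under 0.05. edgeR, the authors' tool, takes read counts rather than FPKM, and it was not run on the recovered reads. The fit was tested on simulated data with the same noise setting for all lines, unlike the spread between the real replicates. Differences between lines were F tests in 1 limma fit of the 24 libraries. The genes named were all 36 members, IGF2BP1 and, of the other pathway lists, genes called the same way in all 4 lines and the largest rise and fall per list and line. Members and lists were chosen with earlier results of these data known. Alternatives were pseudocounts of 0.1 and 1, no filter, a mean of at least 1 FPKM, the same FPKM sum, limma voom on the recovered reads, a replicate block and leaving out each library. Promoters are from RefSeq (GRCh38.p14), and gene positions and 3' UTRs from the newer GENCODE release 44 (hg38), in which SOD2 has another identifier than in the files. Python 3.11.15 with pandas and matplotlib was used for the rest.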

Additional observations from a re-analysis of the deposited data

Results flagged for a closer look

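The knockdown effect differed between the 4 lines, by the F test of the difference itself in 1 limma fit, for 15 of 21 members tested in every line, against 45.0% of all genes tested. Without PANC1, CSF1, REL, RELA, RELB, NFKBIA and IER3 no longer passed. The limma adjusted p was 6.74e-10 for CXCL1, 6.99e-07 for IL11, 3.8e-05 for CXCL8, 0.000293 for CSF1 and 0.00069 for LIF among the secreted cytokines. Among the other members it was 2.42e-09 for TNFAIP2, 5.33e-05 for BIRC3, 0.000491 for SOD2, 0.0061 for NFKBIB, 0.00781 for RELB, 0.00919 for NFKB2, 0.0175 for RELA, 0.0228 for REL, 0.0288 for IER3 and 0.0482 for NFKBIA. RELA and NFKBIA differed between lines without a call in any single line. Their log2 fold changes ran from -0.24 in A549 to 0.36 in PANC1 for RELA and from -0.19 in PANC1 to 0.21 in ES2 for NFKBIA. After rescaling to the same FPKM sum, the PANC1 values were -0.37 for RELA and -0.93 for NFKBIA.

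CXCL1 and TNFAIP2 were called in opposite directions in different lines: CXCL1 lower in MV3 and higher in ES2 and PANC1, TNFAIP2 lower in A549 and ES2 and higher in MV3. Over the lines in which they were tested, CXCL5 (A549, ES2 and MV3, limma adjusted p 1.29e-05), IL6 (A549 and MV3, 0.00491), CCL2 (A549 and PANC1, 0.0067), IL1B (ES2 and MV3, 0.011) and ICAM1 (ES2, MV3 and PANC1, 0.017) also differed, although IL1B entered the ES2 test only through siC, the group in which it was higher. In PANC1 the later harvest and the larger share of RN7SL2 reads moved with the line or the group, and their part in these differences was not tested. The CCL2 value in PANC1 turned to -0.55 after rescaling to the same FPKM sum, and its difference from A549 was not tested under that scaling.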

How the results depend on the processing

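Of the 115 member log2 fold changes tested, 38 were called, and the 38 calls kept their direction and their call under pseudocounts of 0.1 and 1. A mean of at least 1 FPKM cost 1 of the 37 calls still tested, and IL1B in ES2 was no longer tested. The other settings cost 8 of 38 calls with no filter, 7 with a replicate block, 6 with the same FPKM sum and 1 with voom. Another 10 of the 38 calls were lost in at least 1 fit that left out a library, some of them the same genes. The cause was not tested. With no filter, secreted genes higher numbered 1 in A549 and 0 in ES2, components higher in A549 1, components lower in ES2 3 and secreted genes lower in PANC1 1. With the replicate block, secreted genes higher and components higher in A549 numbered 1 each, components lower in ES2 3, secreted genes lower in PANC1 1 and components higher in PANC1 2. Same-numbered siC and siI1 libraries had correlations of their deviations between -0.06 and 0.07, so the numbers were not treated as pairs. With the same FPKM sum, components higher numbered 1 in A549, 2 in ES2 and 0 in PANC1, and components lower 3 in ES2 and 15 in PANC1. With voom on recovered reads, components higher numbered 1 in A549, 2 in ES2 and 3 in PANC1, and components lower in PANC1 5. With a mean of at least 1 FPKM, components higher in PANC1 numbered 2. Leaving out 1 library gave 0 to 1 secreted genes lower and 1 to 2 higher in A549, 1 to 2 components higher in A549, 0 to 1 secreted genes higher, 3 to 4 components lower and 1 to 2 components higher in ES2, and 1 to 2 secreted genes lower, secreted genes higher and components higher in PANC1. Members whose change differs between the 4 lines numbered 15, and 12 to 18 under the other settings for all 4 lines.

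Signs turned in 1 called value, RELB in PANC1 with the same FPKM sum (-0.34), and in values that were not called. With the same FPKM sum these were RELB in A549 (-0.01), ICAM1 (0.05) and NFKBIE (0.02) in ES2, and CXCL8 (-0.50), CCL2 (-0.55), IL11 (-0.55), IL18 (-0.45), RELA (-0.37), NFKBIE (-0.36), TRAF1 (-0.53) and SOD2 (-0.56) in PANC1. Some of the PANC1 values were neither near 0 nor on few reads before the rescaling, such as RELA (0.36, on 403 to 579 reads) and NFKBIE (0.36). The rescaling moved the median of all genes tested in PANC1 from -0.04 to -0.68. CSF2 in A549 turned to -0.21 with a pseudocount of 0.1 and to -0.26 with voom. Over fits without 1 library, values of both signs came from CXCL5 (-0.14 to 0.07), CCL20 (-0.01 to 0.43), IL18 (-0.01 to 0.13), CSF1 (-0.32 to 0.04), CSF2 (-0.51 to 0.84), NFKB2 (-0.13 to 0.02), RELB (-0.07 to 0.08), NFKBIE (-0.00 to 0.24), BIRC2 (-0.13 to 0.01), BIRC3 (-0.01 to 0.12), TRAF1 (-0.03 to 0.28) and IRAK2 (-0.08 to 0.02) in A549. In ES2 they came from CXCL2 (-0.23 to 0.09), ICAM1 (-0.14 to 0.11) and SOD2 (-0.18 to 0.00), and in MV3 from IL11 (-0.07 to 0.02), RELB (-0.03 to 0.04), NFKBIA (-0.04 to 0.01), BIRC2 (-0.00 to 0.04) and SOD2 (-0.00 to 0.04). In PANC1 they came from CXCL8 (-0.21 to 0.31), IL11 (-0.06 to 0.09), TNFAIP2 (-0.03 to 0.03), NFKBIB (-0.12 to 0.07) and TRAF1 (-0.03 to 0.11). Depth limits A549 most, where IL6, IL1A and CSF2 rest on 25 reads or fewer per library.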

Other observations

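Several members lay below the level filter in a line and were not tested there, and their reads are given as values. TRAF1, an adaptor of TNF receptors, had 15 to 23 reads in siC and 4 to 13 in siI1 in ES2, with no overlap between the groups. CXCL6, a relative of CXCL5, had 1 to 3 reads in siC and 4 to 7 in siI1 in PANC1, the line with the most reads of this gene, again with no overlap. CXCL2 in PANC1 had 0 to 1 reads in siC and 1 to 2 in siI1. IL1B in A549 had 4 to 13 reads in siC and 1 to 5 in siI1, with overlapping groups. ICAM1 in A549 had 0 to 6 reads in siC and 0 to 1 in siI1, and PTGS2 in ES2 had 2 to 6 reads in siC and 3 to 4 in siI1. IL18 and CCL2 had 0 reads in every ES2 library, and IL6 and IL1B had 0 in every PANC1 library.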
